A study of Saccharomyces cerevisiae with 35 samples.

Results

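The proteins of the large subunit of the cytosolic ribosome are encoded in Saccharomyces cerevisiae by the RPL genes. The RPL genes were taken here as every feature whose symbol in the R64 genome annotation is RPL followed by a digit, which leaves out the mitochondrial MRPL and the stalk RPP genes. The rule found 76 genes among 5843 features. They were 33 pairs of A and B copies, which make 66 genes, and 10 genes with a single copy.

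The study followed yeast of the FY4/5 background in rich medium after 200 ng/mL rapamycin, which in complex with the FPR1 protein inhibits TORC1, a kinase complex that controls growth. Strains with FPR1 deleted (6 strain codes) and wild-type strains (72 strain codes) were pooled in 1 flask, so both genotypes of a culture met the drug together. Each of 2 such cultures was drained continuously into fresh vessels for 2 intervals of 10 min before the drug and 6 intervals of 10 min after it, giving 16 single-cell libraries that count unique molecular identifiers (UMIs) at the 3′ ends of transcripts. In addition, 3 wild-type cultures of the same background, without deletion cells, were sampled in bulk at 11 times from 0 to 120 min after the same dose. The single-cell groups are therefore fpr1 deletion cells with rapamycin, fpr1 deletion cells untreated, wild-type cells with rapamycin and wild-type cells untreated, with 2 cultures each. Each culture was sampled over and over, and the untreated intervals always came first, so drug and time in the flask cannot be told apart within a genotype.

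An exponentially growing yeast cell spends a large part of its transcription by RNA polymerase II on ribosomal protein genes. TORC1 keeps these genes active through the transcription factor Sfp1 and through Ifh1, which acts with Fhl1 at promoters that Rap1 binds, and its inhibition by rapamycin is known to shut them down. Most RPL genes were duplicated in the ancient duplication of the yeast genome, and the copies of a pair make the same or nearly the same protein from separate promoters.

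The copies were similar enough in sequence that the question of which copy a read came from matters. The shortest pair shows how close 2 copies can be, and its coding sequences are printed for that reason. RPL41A and RPL41B encode the smallest protein of the ribosome, and their coding sequences of 78 bases, on the minus strand of chromosome IV in R64 (chrIV:130407-130484 and chrIV:221724-221801), differ by the single substitution C9T, counted from the A of the start codon and set in capitals.
RPL41A: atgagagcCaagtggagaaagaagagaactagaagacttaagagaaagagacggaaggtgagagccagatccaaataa
RPL41B: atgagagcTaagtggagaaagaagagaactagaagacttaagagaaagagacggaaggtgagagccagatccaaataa
Over all 33 pairs, 31 had coding sequences of equal length, identical bases ran from 78.9% to 99.4% with a median of 93.7%, and 12 pairs had identical translations. In the 200 bases after the stop codon, none of the 33 pairs shared a word of 31 bases. Toward the 3′ end of the coding sequence, many pairs did share such words. Of the A copy's words there, B held 100% for RPL1, 81.3% for RPL41, 78.1% for RPL7, 71.5% for RPL14 and 49.3% for RPL18. It held 22.6% for RPL26, 14.8% for RPL9, 1.48% for RPL15 and 0% for RPL22. Where along the transcripts the reads fell was not measured. No source used here says how reads that match both copies were assigned, so a level of a single copy carries that uncertainty.

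Promoter letters were searched for words of known regulators. A Rap1-type word, ACCCNNACA on either strand, stood in the 500 bases before the start codon of 35 of the 76 RPL genes (46.05%), against 317 of 5797 genes of the annotation (5.468%). Both copies had it in 8 pairs, the A copy alone in 4, the B copy alone in 12 and neither in 9, and 3 of the 10 single-copy genes had it. In the same window and on both strands, the Fhl1-type word GACGC stood before 31 RPL genes (40.79%, against 30.07% of all genes) and AAAATTT before 37 (48.68%, against 34.47%). A word of the Abf1 type stood before 31 (40.79%, against 46.27%) and the stress element AGGGG before 22 (28.95%, against 34.38%). The stretches of 100 bases around the match are shown for the genes of the pairs described below in which a match lay far enough upstream, with the match in capitals and each sequence 5′ to 3′ along the gene's own strand. A match describes letters in a window and is not a site of binding. Nor does the absence of the word show that a gene lacks a Rap1 site, since other forms were not searched.
RPL7A (chrVII:366193-366292, minus strand): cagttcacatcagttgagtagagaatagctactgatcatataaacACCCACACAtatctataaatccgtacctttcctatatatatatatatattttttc
RPL9A (chrVII:228585-228684, minus strand): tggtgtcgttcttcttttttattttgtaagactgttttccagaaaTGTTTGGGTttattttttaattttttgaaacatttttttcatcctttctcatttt
RPL14A (chrXI:431451-431550, plus strand): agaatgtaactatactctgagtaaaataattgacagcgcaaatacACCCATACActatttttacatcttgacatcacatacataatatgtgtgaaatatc
RPL22B (chrVI:65123-65222, minus strand): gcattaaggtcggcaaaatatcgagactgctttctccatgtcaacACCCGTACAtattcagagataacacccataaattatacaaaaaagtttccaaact
RPL26A (chrXII:818997-819096, plus strand): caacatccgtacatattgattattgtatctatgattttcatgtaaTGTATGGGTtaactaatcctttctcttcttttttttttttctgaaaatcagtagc
RPL26B (chrVII:555483-555582, plus strand): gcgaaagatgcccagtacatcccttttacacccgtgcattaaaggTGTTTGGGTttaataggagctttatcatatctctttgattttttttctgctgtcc
RPL41B (chrIV:222091-222190, minus strand): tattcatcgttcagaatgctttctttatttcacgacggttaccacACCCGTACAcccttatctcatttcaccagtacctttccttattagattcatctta

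The deposited single-cell counts held 10818 deletion and 162529 wild-type cells. Of 169649 distinct barcodes, 3646 occurred in more than 1 library. UMIs were summed per genotype and library, and the 32 sums held 1501368 to 5191196 UMIs for deletion cells and 3993298 to 69114350 for wild-type cells. FPR1, the deleted gene, stood at 13.6 to 98.9 CPM (counts of a gene scaled to a common library total) of unscaled totals in deletion sums and at 915 to 1824 in wild-type sums. Deletion sums were thus not free of FPR1 UMIs. The 33 bulk libraries were shallow, with 3800 to 111293 counts and a median of 41501. Counts at 3′ ends are not divided by length, so levels are compared within a gene or between the copies of a pair, and CPM below are scaled by the trimmed mean of M-values (TMM) unless said to be of totals.

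After rapamycin, RPL transcripts kept most of their share of UMIs in deletion cells and lost most of it in wild-type cells within 60 min. In deletion cells the RPL share of all UMIs, given for cultures 1 and 2 in each interval, was 22.5% and 21.5% for -20 to -10 min, 22.2% and 21.0% for -10 to 0 min, 22.3% and 21.0% for 0 to 10 min, and 21.8% and 20.7% for 10 to 20 min. It was then 18.6% and 18.9% for 20 to 30 min, 18.4% and 18.6% for 30 to 40 min, 17.5% and 16.6% for 40 to 50 min, and 18.0% and 16.3% for 50 to 60 min. In wild-type cells the share was 21.5% and 22.2% for -20 to -10 min, 21.3% and 21.9% for -10 to 0 min, 19.9% and 20.0% for 0 to 10 min, and 13.5% in both cultures for 10 to 20 min. It went on to 6.23% and 7.32% for 20 to 30 min, 3.34% and 4.26% for 30 to 40 min, 2.18% and 2.69% for 40 to 50 min, and 1.78% and 2.08% for 50 to 60 min. The genotypes overlapped before the drug and were apart in both cultures in every interval after it. Per cell, the last interval held 1253 and 619 RPL UMIs in deletion cells, against 41.9 and 64.7 in wild-type cells. Untreated intervals held 629 to 929 in deletion cells and 787 to 1310 in wild-type cells. Depth differed as well, with median UMIs per cell in the last interval of 6234 and 3246 in deletion cells and 1729 and 2856 in wild-type cells.

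**Figure D1:**
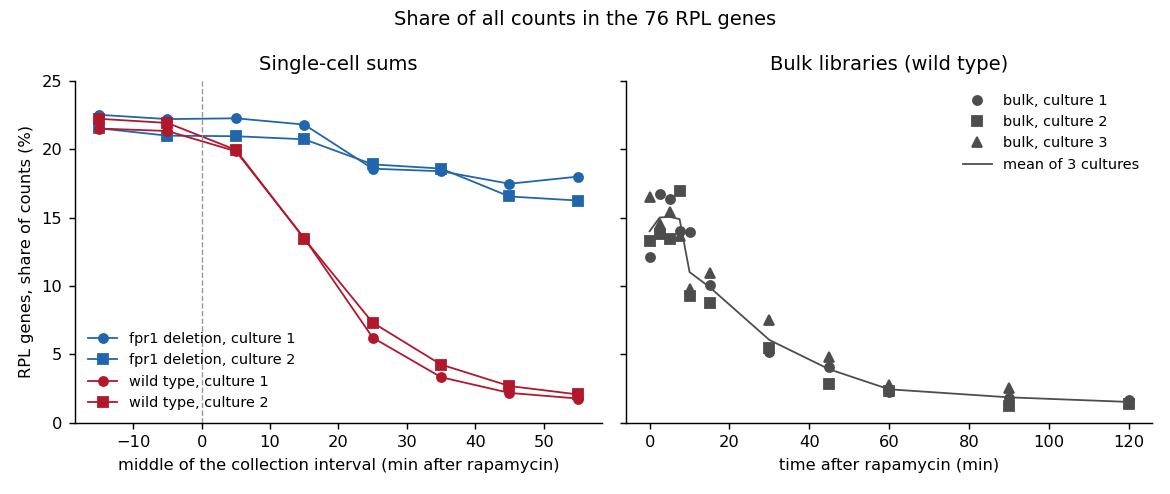
RPL share of all UMIs or counts (percent, vertical axis) against time (min, horizontal axis) for deletion sums, wild-type sums and bulk libraries, with 1 point per culture. Deletion sums end at 18.0% and 16.3%, wild-type sums at 1.78% and 2.08%, and bulk libraries at a mean of 1.53%.

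The bulk cultures followed the same quantity past the hour. The RPL share of counts was 14.0% ± 2.28 at 0 min (SD, n = 3 cultures at each time), 15.0% ± 1.54 at 2.5 min, 15.1% ± 1.51 at 5 min and 14.9% ± 1.81 at 7.5 min. It was 11.02% ± 2.58 at 10 min, 9.93% ± 1.11 at 15 min, 6.06% ± 1.26 at 30 min, 3.92% ± 0.985 at 45 min, 2.45% ± 0.258 at 60 min, 1.86% ± 0.665 at 90 min and 1.53% ± 0.126 at 120 min. The libraries of the times up to 7.5 min overlapped with those at 0 min, and all 3 cultures were below every 0 min library from 15 min on. In bulk samples, fewer cells that express a gene and less RNA per cell cannot be told apart.

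The test for single genes was edgeR's quasi-likelihood test on the 32 sums, with p-values of all 5549 genes tested adjusted together after Benjamini and Hochberg (BH) and a call at an adjusted p under 0.05. All 76 RPL genes were among the genes tested. Each treated interval was set against the mean of both untreated intervals of its genotype.

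In deletion cells no RPL gene was called lower at 0 to 10 min or 10 to 20 min, where 0% of all genes tested were called lower. Neither interval had an RPL gene at an unadjusted p under 0.05 or a call by DESeq2. Later intervals had 20 RPL genes called lower at 20 to 30 min (1.93% of all genes), 24 for 30 to 40 min (2.67%), 49 for 40 to 50 min (6.67%) and 46 for 50 to 60 min (6.42%). Adding the culture as a replicate block to the model gave 39 calls at 20 to 30 min and 42 for 30 to 40 min. The falls were small, with a median log2 change over the 76 genes of -0.36, -0.37, -0.54 and -0.52 in these 4 intervals, beside 0.05 for all genes tested at 50 to 60 min. In the last interval 57 of the 76 genes had both deletion sums below all 4 untreated deletion sums, as did 15.4% of all genes tested. These counts moved after subtraction of the wild-type share given by FPR1: the calls were 2, 0, 30 and 33 and the median at 50 to 60 min was -0.42. How the FPR1 UMIs came into the deletion sums was not tested. When culture 2 lost its 50 to 60 min library the test gave 3 calls in place of 46, and when it lost its 40 to 50 min library 21 in place of 49. Without any single library it gave 0 to 11 calls for 20 to 30 min and 0 to 20 for 30 to 40 min. With library totals in place of TMM there were 20 calls in the last interval. With sums scaled by the number of cells there were 0, and the sign of the RPL median flipped to 0.19, beside 0.69 for all genes.

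In wild-type cells only RPL22B and RPL36A were called lower at 0 to 10 min, when 9.5% of all genes tested were called lower, and the replicate block gave 14 calls and the sets without 1 library 1 to 3. The counts then were 71 of 76 for 10 to 20 min (28.5% of all genes), 73 for 20 to 30 min (32.4%), 74 for 30 to 40 min (34%), 74 for 40 to 50 min (35.1%) and 74 for 50 to 60 min (36%). The median log2 change over the 76 genes went step by step through -0.25, -1.11, -2.54, -3.51, -4.30 and -4.64, while that of all genes was 0.11 in the last interval. With library totals in place of TMM the last medians were -3.83 for RPL genes and 0.94 for all genes, and 79.1% of all calls were higher, where TMM gave 53.8%. No RPL gene was called higher at 50 to 60 min, by edgeR or by DESeq2, when 41.9% of all genes tested were, and all 76 fitted changes were below 0. Both wild-type sums of the last interval lay below all 4 untreated sums in 74 of the 76 genes, and in 38.9% of all genes tested.

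The same edgeR model gave the interaction of genotype and drug, coded as the wild-type change minus the deletion change, so a negative value means a larger fall in wild-type cells. It was called lower in 1 RPL gene for 0 to 10 min (2.49% of all genes), 68 for 10 to 20 min (20.4%), 71 for 20 to 30 min (24.6%), 74 for 30 to 40 min (27.5%), 74 for 40 to 50 min (29.2%) and 74 for 50 to 60 min (30.8%). The median interaction in the last interval was -4.01 over the 76 genes. The gene called at 0 to 10 min was RPL22B. RPL15B and RPL41B were the 2 genes without a call at 50 to 60 min.

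**Figure D2:**
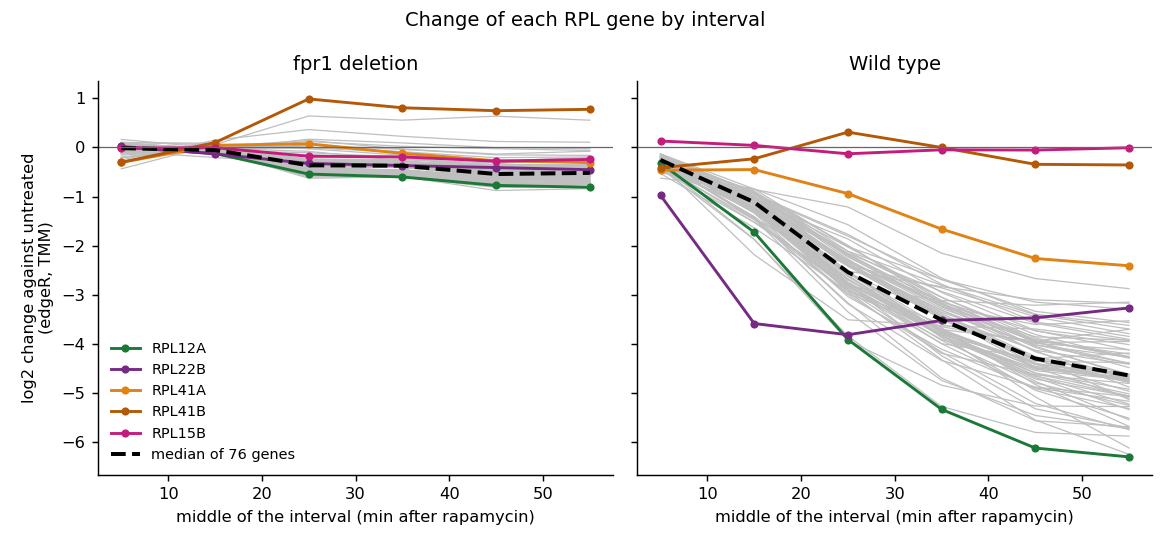
Log2 change against the untreated intervals (vertical axis) in each interval after rapamycin (min, horizontal axis) for the 76 RPL genes, deletion cells on the left and wild-type cells on the right, with 1 line per gene and named genes coloured. Deletion lines stay near 0 with a median of -0.52 in the last interval under TMM (0.19 when sums are scaled by cells), while wild-type lines fan down to a median of -4.64, with RPL15B near 0 and RPL22B low from 10 to 20 min.

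Time courses were alike for most RPL genes in wild-type cells. The lowest fitted value came in the 50 to 60 min interval for 68 genes, in the 40 to 50 min interval for 5 and earlier for 3. The median gene of the 74 called ones had covered 24.2% of its last log2 change by 10 to 20 min and 53.8% by 20 to 30 min. Of these 74, RPL22B and RPL7B had covered 50% or more by 10 to 20 min. Between 20 to 30 min and 50 to 60 min, 7 of the 76 genes moved by less than 1 log2 unit, and 6 of the 7 are B copies. They were RPL7B, RPL9B, RPL14B, RPL22B and RPL26A, which had fallen by then, and RPL15B and RPL41B, which were not called.

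RPL5 and the RPL11 pair, whose proteins enter the subunit together with the 5S ribosomal RNA, were called lower in both genotypes at 50 to 60 min. In that interval, to which the groups below also refer, 6.42% of all genes tested were called lower in deletion cells and 36% in wild-type cells. The deletion calls depended on scaling and on single libraries, as given above. RPL5 had 4565 and 3891 CPM in the last deletion sums and 7196, 5661, 6466 and 5900 in untreated deletion sums. In wild-type cells it had 155.5 and 139.8 CPM in the last sums, against 7157, 6740, 6573 and 7069 untreated. Its change was -0.58 (SE 0.109, BH-adjusted p 0.00204, edgeR) in deletion cells and -5.54 (SE 0.145, BH-adjusted p 1.05e-18, edgeR) in wild-type cells. RPL11A had 1783 and 833.2 CPM in the last deletion sums and 2155 to 2551 untreated, so its cultures differed in the size of the fall, and 87.1 and 60.8 in the last wild-type sums and 2476 to 2667 untreated. The wild-type changes of RPL11A and RPL11B were -5.13 and -4.80.

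Among the genes for proteins at the catalytic centre (RPL2A, RPL2B, RPL3, RPL10 and RPL28), 4 of 5 were called lower in deletion cells (6.42% of all genes). Their median there was -0.60. In wild-type cells 5 of 5 were called lower (36% of all genes), with a median of -4.48. RPL3, a protein that reaches into the peptidyl transferase centre, had 4411 and 3937 CPM in the last deletion sums and 6512, 6331, 6236 and 6303 untreated. It had 282.2 and 340.1 CPM in the last wild-type sums and 6691, 7489, 6243 and 7433 untreated. RPL10, which joins the subunit late in the cytoplasm, kept 622.7 and 735 CPM in the last wild-type sums, against 6034, 7277, 6256 and 7109 untreated. Its wild-type change of -3.30 (SE 0.139, BH-adjusted p 1.65e-15, edgeR) was smaller than the RPL median, and so was that of RPL28, the protein in which cycloheximide resistance mutations lie, at -3.70. RPL30, whose protein binds its own pre-mRNA, changed by -4.63 in wild-type cells.

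At the exit tunnel and its rim, 8 of 14 genes were called lower in deletion cells (6.42% of all genes), with a median of -0.42. In wild-type cells 14 of 14 were (36% of all genes), with a median of -4.51. RPL25, whose protein is a docking site for the signal recognition particle, had 3631 and 2881 CPM in the last deletion sums and 4477, 4583, 4696 and 4437 untreated, and 198.6 and 212.2 in the last wild-type sums and 4552, 5474, 4851 and 5302 untreated. RPL17B, RPL26B and RPL31B of this group were among the 5 RPL genes that fell most in wild-type cells, at -5.75, -6.25 and -5.88. The other two were RPL12A of the stalk base and RPL9A. RPL12A held 1947 and 1407 CPM in the last deletion sums and 2643 to 3272 in untreated deletion sums, and 48.8 and 38.9 in the last wild-type sums and 3238 to 3530 in untreated wild-type sums. Its wild-type change of -6.30 (SE 0.201, BH-adjusted p 1.72e-17, edgeR) was the lowest of the 76.

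Both ubiquitin fusion genes, RPL40A and RPL40B, were lower in both genotypes, with medians of -0.64 in deletion cells and -4.27 in wild-type cells. Of the 8 genes of proteins that join late, 5 were called lower in deletion cells (6.42% of all genes) and 8 in wild-type cells (36%). Their medians were -0.61 and -4.14 in that order. Single-copy genes had a wild-type median of -4.55, A copies -4.77 and B copies -4.62. Genes with a Rap1-type word had a wild-type median of -4.68 and those without one -4.63, and 52 genes with introns had -4.70 beside -4.44 for 24 without, so these groupings lay close together. Grouping by this word does not compare genes with and without Rap1 binding.

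RPL15B, the minor copy of RPL15, was not called in either genotype. It had 103.6 and 106.5 CPM in the last deletion sums and 144.1, 122.1, 112.9 and 120.3 in untreated deletion sums, so both last sums lay below the untreated ones. In wild-type cells it had 88.1 and 123.5 CPM in the last sums, and 121.6, 100.9, 110.9 and 94.7 untreated, so the groups overlapped. The wild-type change was -0.01 (SE 0.172, BH-adjusted p 0.978, edgeR), and within cultures it was -0.40 in culture 1 and 0.34 in culture 2. Its sign turned under several alternatives: 0.83 with library totals (BH-adjusted p 0.00523, edgeR), 0.066 per cell and 0.051 against the last untreated interval alone. The interaction was 0.24 (SE 0.251, BH-adjusted p 0.438, edgeR).

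RPL41B was the other RPL gene without a call in wild-type cells, at -0.36 (SE 0.657, BH-adjusted p 0.632, edgeR), and its cultures differed, as did those of RPL39. RPL39 codes for a short protein that lines the exit tunnel. RPL41B held 3237 and 1734 CPM in the last deletion sums and 1660, 909.3, 2495 and 797.3 untreated, and 1120 and 892.1 in the last wild-type sums and 1479, 815.3, 2155 and 733.8 untreated. Culture 1 stood above culture 2 in each of these pairs. RPL39 likewise held 3777 and 1567 CPM in the last deletion sums and 2164, 1046, 3323 and 817.6 untreated, and 311.2 and 189.6 in the last wild-type sums and 2009, 1222, 3173 and 972.6 untreated. RPL39, RPL41A and RPL41B have the shortest coding sequences of the RPL genes, with 156, 78 and 78 bases, ahead of 180 for the next. The log2 ratio of culture 1 to culture 2 ranged over intervals from 0.08 to 2.02 in deletion cells and from -0.04 to 1.71 in wild-type cells for RPL39, and from -0.04 to 1.65 in deletion cells and from 0.00 to 1.55 in wild-type cells for RPL41B. For the 73 genes other than these 3 the median span of that ratio over wild-type intervals was 0.364, and the highest was 1.74, for RPL1B. Wide spans were not particular to the short genes: RPL1A and RPL1B, with 654 coding bases each, had ratios from -0.75 to 1.45 and from -0.28 to 1.83 in deletion cells, and from -0.89 to 0.68 and from -0.53 to 1.21 in wild-type cells. Both genotypes of a culture share their libraries, and the part of library preparation in these spans was not tested. Within cultures, RPL41B changed by 0.64 and 1.02 in deletion cells and by -0.70 and 0.20 in wild-type cells. RPL39 changed by 0.46 and 0.75 in deletion cells and by -3.06 and -2.53 in wild-type cells, and the RPL39 change of -2.87 in wild-type cells (BH-adjusted p 0.00472, edgeR) lost its call when the 50 to 60 min library of culture 2 was left out (BH-adjusted p 0.0512, edgeR).

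Before the drug, only RPL21B and RPL22B were called between the genotypes, both higher in wild type, when 0.469% of all genes tested were called higher in wild type. At an unadjusted p under 0.05 (edgeR), in either direction, there were 10 of 76 RPL genes and 461 of 5549 genes. Of the 76 fitted log2 differences 4 were below 0, and their median was 0.13, beside 0.03 for all genes. The fold changes are wild type over deletion. RPL21B had 3321, 2860, 3025 and 2728 CPM in untreated deletion sums, and 4370, 4229, 4039 and 4270 in untreated wild-type sums, a log2 difference of 0.50 (SE 0.0978, BH-adjusted p 0.0165, edgeR). RPL22B had 282.0, 281.4, 271.7 and 254.4 CPM in untreated deletion sums, and 360.8, 345.1, 352.2 and 328.6 in untreated wild-type sums, a log2 difference of 0.35 (SE 0.0795, BH-adjusted p 0.0461, edgeR). The sums of the genotypes did not overlap for either gene. Neither was called with library totals in place of TMM, nor after leaving out any 1 untreated library.

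For pairs, the log2 ratio of A to B within each library was tested with limma over 61 A/B pairs of tested genes, of which 33 are RPL pairs, and called at a BH-adjusted p under 0.05. A ratio of genes of the same library does not depend on its scaling. In deletion cells, 2 of 33 RPL pairs were called at 50 to 60 min (9.84% of all pairs): RPL41 at -1.20 (SE 0.356) and RPL42 at 0.58 (SE 0.163). In wild-type cells, 1 RPL pair was called at 0 to 10 min (1.64% of all pairs), 15 for 10 to 20 min (44.3%), 23 for 20 to 30 min (70.5%), 25 for 30 to 40 min (77%), 27 for 40 to 50 min (83.6%) and 23 for 50 to 60 min (77%). The change in wild type minus that in deletion cells was called for 20 RPL pairs for 50 to 60 min (68.9% of all pairs). Of the 23 called pairs in wild-type cells, 10 shifted toward A and 13 toward B, and 14 by 1 or more on the log2 scale. Of the 23, 17 shifted toward the copy that was lower before the drug and 6 toward the higher one, and the untreated sums enter both sides of that count. The higher copy was another one at 50 to 60 min than before the drug in 9 called pairs: RPL1, RPL9, RPL11, RPL14, RPL21, RPL23, RPL24, RPL26 and RPL37. A was the higher copy in 17 of 33 pairs for 50 to 60 min and in 20 untreated, and the median absolute log2 ratio was 0.84 for 50 to 60 min and 0.92 untreated.

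**Figure D3:**
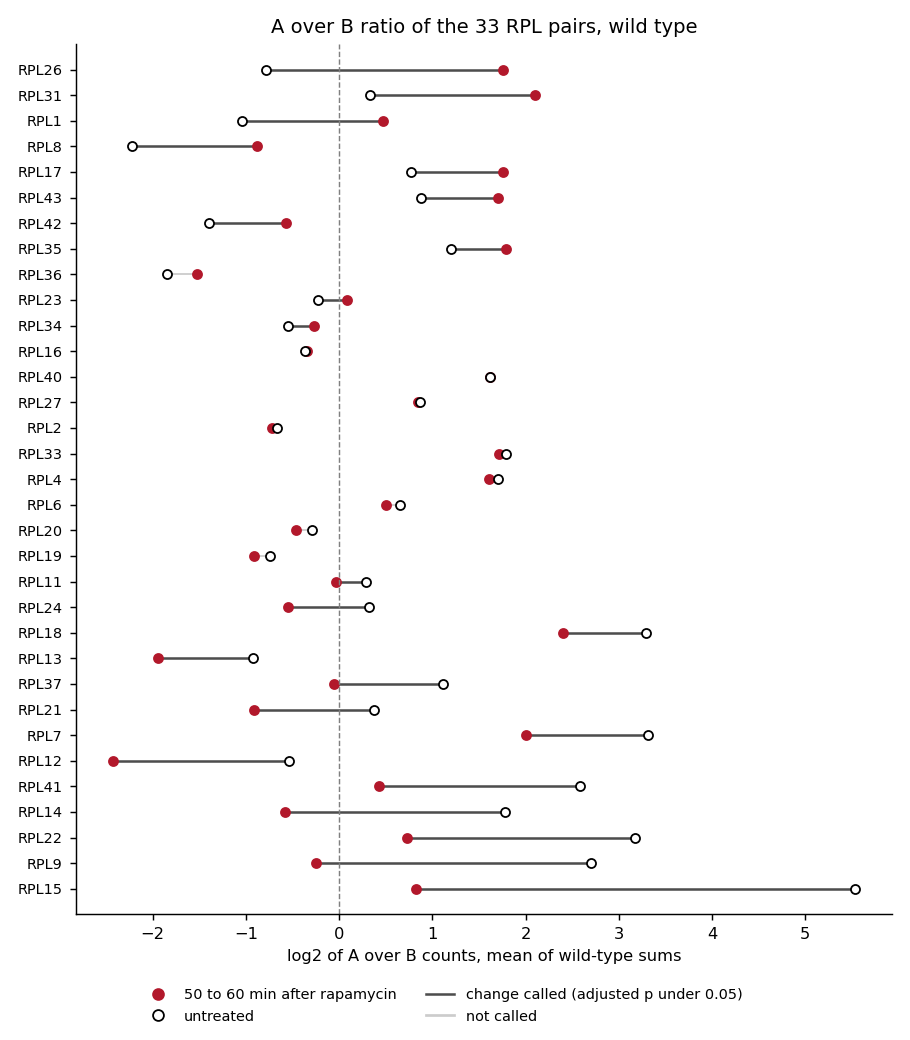
Log2 ratio of the A to the B copy for each of the 33 RPL pairs in wild-type cells, comparing 50 to 60 min of rapamycin with the untreated intervals. RPL15 moves most, to 0.83 at 50 to 60 min, against 5.54 untreated, and RPL9, RPL26 and RPL14 cross the line of equal copies.

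RPL15, whose protein lies deep in the subunit, had the most unequal copies before the drug and the largest change. The A copy made 96.4% and 95.4% of the pair's UMIs in the last deletion sums, against 96.9% to 97.4% in untreated deletion sums. It made 68.7% and 58.9% in the last wild-type sums, against 97.6%, 98.0%, 97.7% and 98.2% in untreated wild-type sums. RPL15A had 193.1 and 177.2 CPM in the last wild-type sums and 4933, 4957, 4794 and 5090 untreated, a change of -4.74 (SE 0.129, BH-adjusted p 1.80e-18, edgeR), while RPL15B was not called. The ratio changed by -4.71 in wild-type cells (SE 0.207, BH-adjusted p 1.01e-13, limma), and this change minus that in deletion cells was -4.21.

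RPL9, a protein near the base of the stalk, had near-equal copies in wild-type cells after rapamycin, where the A copy had led before it. The A copy made 86.4% and 78.6% of the pair in the last deletion sums of cultures 1 and 2. In untreated deletion sums it made 90.0% and 89.3% in culture 1, and 85.0% and 84.4% in culture 2. It made 45.6% and 46.0% in the last wild-type sums, against 86.3% to 87.1% in untreated wild-type sums. RPL9A fell to 54.6 and 56.8 CPM in the last wild-type sums, against 3812 to 3912 untreated, and RPL9B to 65.2 and 66.7 CPM, against 564.1 to 612.6 untreated. The changes were -6.12 and -3.17, and that of the ratio was -2.95 (SE 0.282, BH-adjusted p 1.17e-08, limma).

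RPL26, near the mouth of the exit tunnel, shifted the other way. The A copy made 39.8% and 40.2% of the pair in the last deletion sums, against 37.0% to 37.8% in untreated deletion sums. It made 78.1% and 76.1% in the last wild-type sums, against 36.1% to 37.1% in untreated wild-type sums. RPL26B fell to 63.6 CPM in both last wild-type sums, against 4671 to 4959 untreated, while RPL26A kept 227 and 202.4 CPM, against 2644 to 2878 untreated. The ratio changed by 2.54 in wild-type cells (SE 0.0644, BH-adjusted p 3.34e-17, limma). Both promoters hold a Rap1-type word, as printed above.

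RPL14 resembled RPL9 in direction. The A copy made 77.1% and 79.2% of the pair in the last deletion sums, against 77.6% to 78.9% in untreated deletion sums. It made 39.2% and 40.7% in the last wild-type sums, against 76.2% to 78.2% in untreated wild-type sums. RPL14A fell by 5.51 on the log2 scale in wild-type cells and RPL14B by 3.15, and the ratio changed by -2.36 (SE 0.0878, BH-adjusted p 1.02e-14, limma). The word is present before RPL14A and absent in the window before RPL14B.

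RPL22 had the only pair ratio called at 0 to 10 min, and it moved in opposite directions early and late. The RPL22 protein is known to bind the intron of RPL22B and hold back its splicing. RPL22B in wild-type cells stood at 360.8 and 345.1 CPM at -20 to -10 min, 352.2 and 328.6 at -10 to 0 min, and 191.9 and 160.9 at 0 to 10 min. It was at 30.3 and 27.5 CPM at 10 to 20 min, where RPL22A still stood at 1429 and 1369, against 2983 to 3250 untreated. RPL22B then stayed between 24.3 and 37.2 CPM until 60 min, while RPL22A reached 64.4 and 55.8 CPM at 50 to 60 min. The change of RPL22B was -0.97 at 0 to 10 min (SE 0.0993, BH-adjusted p 3.10e-07, edgeR), -3.58 at 10 to 20 min and -3.27 at 50 to 60 min. The log2 ratio of A to B changed by 2.42 at 10 to 20 min (SE 0.109, BH-adjusted p 8.66e-13, limma) and by -2.45 at 50 to 60 min (SE 0.109, BH-adjusted p 1.05e-13, limma). In deletion cells the ratio change at 50 to 60 min was -0.01.

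RPL7 followed a course of the same shape with smaller steps. RPL7B in wild-type cells held 368.2 and 417.1 CPM at 0 to 10 min, 102.3 and 116.7 at 10 to 20 min, 38.5 and 48.8 at 20 to 30 min and 33.4 and 32 at 50 to 60 min. RPL7A held 4139 and 4717 CPM at 0 to 10 min, 2092 and 2347 at 10 to 20 min, 762.6 and 708.4 at 20 to 30 min and 151.9 and 112.9 at 50 to 60 min. The ratio of A to B changed by 1.03 at 10 to 20 min (SE 0.118, BH-adjusted p 1.31e-06, limma) and by -1.31 at 50 to 60 min (SE 0.118, BH-adjusted p 4.81e-09, limma). RPL7 was also 1 of 3 RPL pairs whose ratio differed between untreated genotypes (13.1% of all pairs), by 0.71 wild type over deletion (SE 0.0964, limma), with RPL21 at -0.38 and RPL35 at -0.31.

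**Figure D4:**
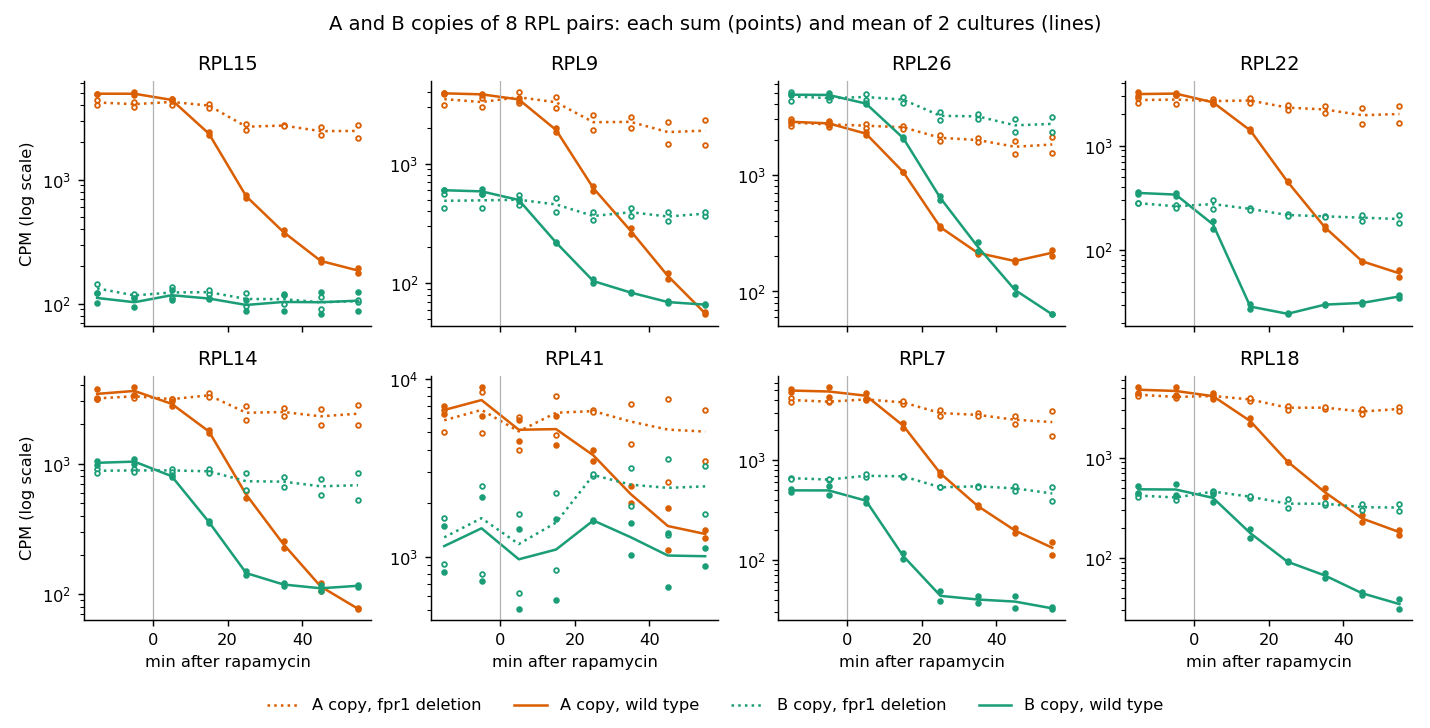
Level (CPM, log axis) of the A and B copies of the named pairs by interval (min, horizontal axis), 1 point per culture, deletion and wild-type cells apart. RPL22B drops to 30.3 and 27.5 CPM at 10 to 20 min in wild-type cells, ahead of RPL22A, and RPL15B ends at 88.1 and 123.5 CPM while RPL15A falls to 193.1 and 177.2.

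RPL18 and RPL41 completed the named pairs. For RPL18 the A copy made 90.3% and 91.0% of the pair in the last deletion sums, against 90.9% to 91.2% in untreated deletion sums. It made 84.8% and 83.3% in the last wild-type sums, against 90.4% to 90.9% in untreated wild-type sums, a ratio change of -0.90 (SE 0.0644, BH-adjusted p 1.65e-10, limma). For RPL41 the A copy made 67.2% and 66.6% in the last deletion sums, against 77.1% to 86.2% in untreated deletion sums. It made 55.7% and 58.8% in the last wild-type sums, against 80.7% to 89.4% in untreated wild-type sums. The RPL41 ratio changed by -1.20 in deletion cells (BH-adjusted p 0.0414, limma) and by -2.16 in wild-type cells (SE 0.356, BH-adjusted p 1.73e-05, limma), and the difference of -0.96 between genotypes was not called (SE 0.503, BH-adjusted p 0.0985, limma).

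In bulk, 72 of the 76 RPL genes passed the filter on low counts, and RPL7B, RPL9B, RPL22B and RPL39 did not. Each time was set against 0 min with edgeR's quasi-likelihood test over 910 genes. RPL genes called lower were 0 at 2.5 min (0% of all genes), 0 at 5 min (0.33%), 0 at 7.5 min (0.33%), 11 at 10 min (3.96%), 23 at 15 min (8.9%), 57 at 30 min (18.6%), 64 at 45 min (22.2%), 66 at 60 min (24.3%), 67 at 90 min (23.8%) and 69 at 120 min (25.7%). At an unadjusted p under 0.05, in either direction, there were 0, 15 and 15 RPL genes at 2.5, 5 and 7.5 min. Without the filter the counts were 0 at 10 min, 1 at 15 min and 34 at 30 min, and without any 1 of the 3 cultures they were 0 to 7, 2 to 8 and 34 to 44. The median log2 change was -0.74 at 10 min, -0.90 at 15 min, -1.79 at 30 min, -2.31 at 45 min, -2.92 at 60 min, -3.20 at 90 min and -3.38 at 120 min, where that of all genes was 0.27. The same 72 genes had a median of -4.68 at 50 to 60 min in the wild-type sums, and the 2 tables were made and scaled separately.

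A few RPL genes were called higher in bulk. RPL13B, named after its values were seen, and RPL14A were called higher at 5 min (1.21% of all genes were), by 1.34 and 1.43, and at 7.5 min (2.42%), by 1.37 and 1.26. RPL14A and RPL15B were called higher at 10 min (5.16%), by 1.21 and 2.89. At 15, 30, 45 and 90 min 1 RPL gene each was called higher, when 60, 90, 116 and 201 of 910 genes were. The highest RPL changes at these times were 3.17, 2.40, 2.72 and 2.70. At 60 min 0 RPL genes were called higher, when 166 of 910 genes were. At 120 min RPL15B alone was called higher (23.5%), by 2.57 (SE 0.905, BH-adjusted p 0.0147, edgeR). Its counts in cultures 1, 2 and 3 were 36, 1 and 15 at 120 min, against 1, 1 and 0 at 0 min. Per total count this is a ratio of 8.30 with an exact 95% interval of 2.18 to 70.3, which covers counting error only, and the groups overlapped, with 1 count in culture 2 at both times. At 15 min the counts of RPL15B were 20, 21 and 15, all above those at 0 min, but the library totals differed. In CPM these were 205.7, 524.9 and 315.8 at 15 min, against 115.0, 30.2 and 0 at 0 min. Without culture 2 or without culture 3 no RPL gene was called higher at 120 min. The RPL genes not called at 120 min were RPL14B at -0.92 (BH-adjusted p 0.116, edgeR) and RPL18B at 0.05 (BH-adjusted p 0.944, edgeR).

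At the other end, RPL11A changed by -5.77 at 120 min in bulk. Its counts were 5, 1 and 3 at 120 min, against 18, 68 and 55 at 0 min. Pair ratios in bulk were called for 6 of 30 RPL pairs at 120 min (18.5% of all pairs), and for 2 without culture 1, 2 without culture 2 and 3 without culture 3, with RPL15 at -4.64, RPL18 at -3.41, RPL1 at -2.65, RPL37 at -1.96, RPL14 at -1.62 and RPL26 at 1.61. RPL14, RPL15, RPL18, RPL26 and RPL37 had shifted in the same direction in wild-type single cells. RPL1 at 120 min had not: its ratio changed by 1.51 in wild-type sums at 50 to 60 min. At nearer times the bulk RPL1 ratio also rose, by 2.92 at 45 min (BH-adjusted p 0.0164, limma) and by 0.89 at 60 min (BH-adjusted p 0.393, limma). These values rest on few counts: RPL1A had 0, 0 and 3 at 120 min, and RPL1B had 0, 0 and 1 at 45 min.

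**Figure D5:**
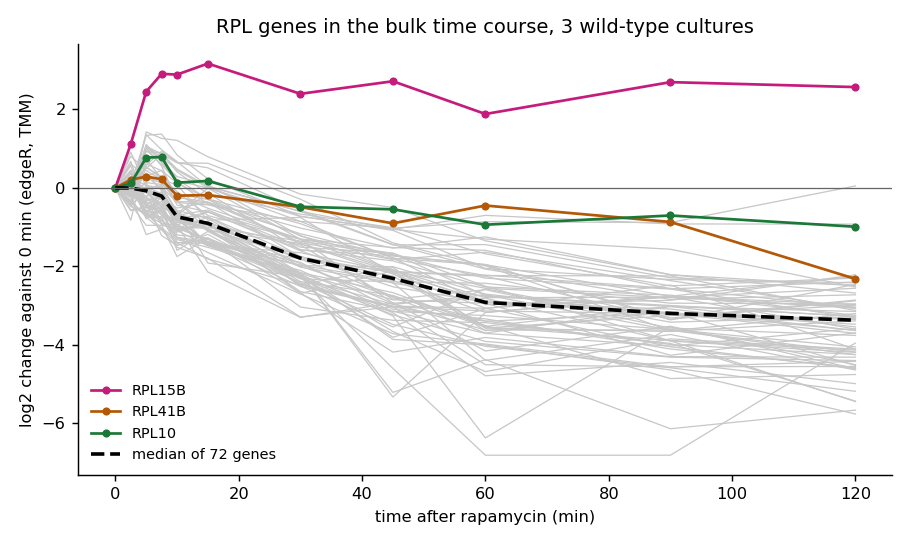
Log2 change against 0 min (vertical axis) of the 72 RPL genes tested in bulk by time after rapamycin (min, horizontal axis), with 1 line per gene and their median. The median reaches -3.38 at 120 min, and RPL15B, at 2.57, is the highest line there.

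The other cytosolic ribosomal protein genes and the regulators were measured in the same sums. All 56 RPS genes of the small subunit were called lower in wild-type cells at 50 to 60 min with a median of -4.62. So were all 6 stalk protein genes (RPP), with a median of -4.13, when 36% of all genes tested were. All 5 dedicated chaperones, which each carry particular large-subunit proteins to their place, were called lower in wild-type cells from 0 to 10 min on. Of all genes tested, 9.5% were called lower at 0 to 10 min. At 10 to 20 min their median was -2.79, beside -1.11 for the RPL genes. SYO1, the chaperone of the RPL5 and RPL11 proteins, changed by -0.32 in deletion cells (BH-adjusted p 0.150, edgeR) and by -6.12 in wild-type cells at 50 to 60 min, and RRB1, that of the RPL3 protein, by -0.53 and -5.55 in the same order. Among 13 regulators of ribosomal protein genes, 7 were called lower in wild-type cells at 50 to 60 min, when 36% of all genes tested were, and 4 higher, when 41.9% were. CRF1, which encodes a corepressor of these genes, was higher by 2.26 (SE 0.196, BH-adjusted p 5.08e-10, edgeR), SFP1, an activator, by 0.82, while RAP1 changed by -1.40. TOD6, a repressor of ribosome biogenesis genes, was at -5.24 at 10 to 20 min and -2.64 at 50 to 60 min. In deletion cells 1 of the 13 was called at 50 to 60 min, FHL1, at 0.79 (SE 0.214, BH-adjusted p 0.0199, edgeR), when 5.06% of all genes tested were called higher.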

How the data were processed

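The deposited single-cell values were counts of UMIs per cell and gene, with genotype, strain code, interval and culture assigned by the authors, and the deposited bulk values were raw counts per gene and library. Reads were processed with bcl2fastq, kallisto 0.46.1 and bustools 0.39.3 against sacCer3, per the submitters' processing notes. No source used here says if bulk counts are reads or UMIs. Of 5843 features, 5812 matched an R64 locus tag, which gave symbols, coordinates and sequences (RefSeq, R64), and 31 did not. No cell had under 500 UMIs. Doublets were not called, and an alternative dropped the 5% of cells with most UMIs per library. The 16 PCR libraries were not analysed, and the series has 35 samples.

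UMIs were summed per genotype and library (32 sums), filtered with filterByExpr, scaled by TMM (factors 0.788 to 1.62) and tested in edgeR 4.0.16 with a robust quasi-likelihood fit (R 4.3.3), 1 coefficient per genotype and interval, 16 residual degrees of freedom and 14.1% biological coefficient of variation. Bulk counts were fitted likewise by time, with 22 degrees of freedom and 29.7%. Copies were compared in limma 3.58.1 on log2((A + 0.5)/(B + 0.5)), fitted over 61 pairs in sums and 54 in bulk. The fits were also run on simulated counts without a culture effect, where for the gene tests a small set of genes rose and fell in balance. Such a run cannot check the scaling where most genes change. DESeq2 1.42.0, other scalings, filters, references and left-out libraries were alternatives. The fits take all sums or libraries as independent and pool their spread over all groups, with 2 or 3 cultures in each. Their p-values do not allow for the repeated sampling of a culture. Nor do those of the sums allow for libraries shared by both genotypes.

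Per the labels' protocols, each culture was sampled at every interval or time, so equal numbers pair samples. Deviations from group means correlated with a median of 0.218 and a lowest value of -0.07 between single-cell sums of a culture, and with medians of 0.0661, 0.0527 and 0.113 in bulk. The fit reported has no block, and the replicate block was an alternative.

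Members and lists were chosen with earlier results of these data known. Genes named were the 5 most and 5 least changed, the 6 most changed and 3 most unequal pairs, 13 set by role, and genes not lower in wild-type cells or called between untreated genotypes. RPL1A, RPL1B, RPL13B and RPL36A and the pairs RPL1, RPL21, RPL35, RPL37 and RPL42 were named after their values were seen.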

Additional observations from a re-analysis of the deposited data

Results flagged for a closer look

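Results listed here are those whose change after rapamycin differed between the genotypes by a test of the difference itself, the edgeR or limma interaction at 50 to 60 min with a BH-adjusted p under 0.05. Differences are the wild-type change minus the deletion change, so a negative value for a gene means a larger fall in wild-type cells. This held for 74 of 76 RPL genes, all with a larger fall in wild-type cells, as called for 30.8% of all genes tested. It also held for the A over B ratio of 20 of 33 RPL pairs, beside 42 of all 61 pairs (68.9%). The count of pairs was thus not particular to RPL genes.

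Among the 5 genes that fell most in wild-type cells, the difference of log2 changes was -5.49 for RPL12A, -5.49 for RPL26B, -5.28 for RPL9A, -5.48 for RPL31B and -5.08 for RPL17B. Among those that fell least, it was -2.78 for RPL14B, -3.43 for RPL39 and -2.10 for RPL41A. RPL39 differed between cultures in both genotypes, as given above. RPL41A had 5050 ± 2249 CPM in the last deletion sums and 6268 ± 1819 untreated (SD of 2 cultures). In wild-type cells it had 1342 ± 95.2 CPM in the last sums and 7140 ± 1253 untreated. RPL15B and RPL41B were not called.

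Among the named pairs, the difference of log2 ratio changes was -4.21 for RPL15, -2.43 for RPL9, 2.38 for RPL26, -2.44 for RPL22, -2.33 for RPL14, -1.05 for RPL7 and -0.83 for RPL18.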

How the results depend on the processing

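Of the alternative values for the comparisons, 337 stayed within 1.5 times the reported count and 72 did not. The cause of these moves was not tested. Of those for named genes and pairs, 571 kept direction and call, 9 changed sign and 1 lost its call. Counts of RPL genes called lower in wild-type cells from 20 to 30 min on, and the interactions from 20 to 30 min on, stayed within 1.5 times under every alternative run.

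For wild-type cells at 0 to 10 min, 2 genes were reported, against 1 with library totals, 0 scaled by cells, 14 with the replicate block, 7 by DESeq2, 11 with only the groups compared, 1 with the last untreated interval alone and 1 without the top 5% of cells. At 10 to 20 min the count was 71, and 38 scaled by cells. For deletion cells at 20 to 30 min, 20 were reported, against 0 with library totals, 0 by cells, 39 with the replicate block, 35 by DESeq2, 0 with only the groups compared, 1 with the last untreated interval alone and 2 with the wild-type share removed. At 30 to 40 min (24 reported) these were 1 with totals, 0 by cells, 42 with the block, 0, 1 and 0 for the last 3 of these settings, and 36 by DESeq2. At 40 to 50 min (49) they were 18 with totals, 0 by cells, 1 with only the groups compared, 31 with the last untreated interval alone and 30 with the share removed. At 50 to 60 min (46) they were 20 with totals, 0 by cells and 0 with only the groups compared, while the block gave 58. Scaled by cells, the interaction count was 0 at 0 to 10 min (1 reported) and 17 at 10 to 20 min (68).

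For untreated genotypes, 2 were reported, against 1 with DESeq2's size factors, 0 with totals, 1 with TMM without ribosomal protein genes, 0 by cells, 4 by DESeq2, 0 with only the groups compared, 0 with the last untreated interval alone, 1 with the share removed and 0 without the top 5% of cells. In bulk without a filter, 0, 1 and 34 genes were called at 10, 15 and 30 min, where 11, 23 and 57 were reported.

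Leaving out 1 library gave 1 to 3, 67 to 71, 71 to 73, 73 to 74, 74 and 73 to 74 genes over the 6 wild-type intervals, and 0, 0, 0 to 11, 0 to 20, 21 to 50 and 3 to 54 over the 6 deletion intervals. The interactions gave 1, 57 to 67, 70 to 71, 71 to 74, 73 to 74 and 72 to 74, and the untreated genotypes 0. Leaving out 1 bulk culture gave 0 to 7, 2 to 8, 34 to 44, 45 to 56, 58 to 61, 64 to 66 and 68 to 69 from 10 to 120 min. Pair counts were 23 to 25 in wild-type cells, 18 to 20 for the interaction and 2 to 3 in bulk.

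RPL15B (-0.01 reported) was at 0.83 with library totals, 0.066 by cells, 0.051 with the last untreated interval alone, 0.0034 with the share removed, and -0.37 to 0.12 without 1 library. RPL41B (-0.36 reported) was at 0.44 with totals and -0.65 to 0.13 without 1 library. Library totals moved the median of all genes at 50 to 60 min in wild-type cells to 0.94 from 0.11, and the share of calls that were higher to 79.1% from 53.8%. The RPL median was then -3.83. In deletion cells, totals put the median of all genes at 0.22 with 90.1% of calls higher, and scaling by cells at 0.69 with 99.9%, where the RPL median was 0.19. In bulk at 120 min DESeq2's size factors moved the median of all genes to 0.79 from 0.27. Shallow bulk libraries limit single RPL genes of few counts.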

Other observations

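The deposited strain codes split the wild-type cells by their RPL share before the drug. Of 72 codes, 7 had 17.3% to 18.5% of UMIs in RPL genes in the untreated intervals, and the other 65 had 21.7% to 22.1%. The 7 codes were the same in both cultures, with 17.3% to 18.7% in each, against 21.1% to 21.8% in culture 1 and 22.0% to 22.4% in culture 2 for the other codes. They also held fewer untreated cells, 246 to 305 per code against 573 to 754, and fewer UMIs, with medians per cell of 2184 to 2519 against 4163 to 4816. In the last interval the 7 codes had 1.55% to 1.96% and the others 1.88% to 2.39%. The 6 deletion codes had 17.2% to 17.6% in the last interval and 21.3% to 21.9% untreated. The line of 20% between the groups was drawn after the values were seen, so no test was made, and what the 7 strains are is not given in the labels.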
